A study of Gallus gallus with 24 samples.

Results

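The genes described here encode the nuclear-encoded subunits and complex I assembly factors of oxidative phosphorylation. They were chosen by symbol alone: every gene of the count table whose symbol begins with NDUF, UQCR, COX4 to COX8 or ATP5, together with SDHA, SDHB, SDHC and SDHD. This gave 73 of 23910 genes, of which 39 belong to complex I (7 core subunits, 25 accessory subunits and 7 assembly factors), 4 to complex II, 8 to complex III, 10 to complex IV and 12 to complex V. Peripheral blood mononuclear cells (PBMCs) were taken from 6 broiler chickens of the breed Cobb500, aged 4 to 6 weeks, and cultured for 24 h in RPMI medium with chicken serum. The cells received conA (concanavalin A, a plant lectin that stimulates T cells, at 10 µg/ml), BS (a vital *Bacillus subtilis* strain, 3 bacteria per PBMC), BV (a vital *Bacillus velezensis* strain, 3 bacteria per PBMC) or medium only (Control). Each chicken gave 1 library per condition, pooled from technical duplicates, so that the 24 libraries form 6 per condition, and by the study's methods the same 6 animals stand behind all of them. The titles number the replicates of each condition from 1 to 6, and libraries of the same number are taken here as those of the same chicken.

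Oxidative phosphorylation takes place in the inner mitochondrial membrane. Complex I accepts electrons from NADH and complex II from succinate, ubiquinone carries them to complex III and cytochrome c to complex IV, which reduces oxygen. Complexes I, III and IV move protons across the membrane, and complex V, the ATP synthase, uses the gradient to make ATP. All subunits of complex II and most subunits of the other complexes are encoded in the nucleus, while a few core proteins of complexes I, III, IV and V are encoded in mitochondrial DNA. Lymphocytes that are activated by a mitogen are known to increase both glycolysis and respiration as they grow.

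The libraries held between 12170873 and 31242160 counts, and the 73 genes together took 25116 to 61665 reads, or 0.168% to 0.245% of a library. No gene of the set was near the detection limit: the lowest value of any of them in any library was 48 reads and the median was 474 reads. All 73 genes therefore entered the tests. Levels are given as normalized counts, the read count divided by the size factor of the library, which corrects for depth but not for gene length, and levels are therefore compared between libraries and not between genes. Every library held T cell markers (12 genes summing to 55446 to 75377 normalized counts), B cell markers (9 genes, 1616 to 4754) and monocyte and macrophage markers (12 genes, 2215 to 11294), besides markers of thrombocytes (8 genes, 630.5 to 97527), erythrocytes (8 genes, 253 to 12428) and heterophils (4 genes, 163 to 1036). Of the conA libraries, those numbered 3 and 5 went against their numbers. Over 13024 genes, the deviation of conA library 3 from its group mean correlated best with that of chicken 5 in Control, BS and BV (r = 0.484, 0.275 and 0.423), against r of -0.0344, -0.0249 and -0.02 with its own number. That of conA library 5 correlated best with chicken 3 (r = 0.312, 0.431 and 0.446), against 0.0796, -0.0827 and -0.0309 with its own number, while the remaining 4 conA libraries matched their own numbers best. Values within a chicken and fits with the chicken as a block use the numbers as given. For conA, the pairs numbered 3 and 5 may therefore not be of the same chicken, also where all 6 chickens are counted below. The counts for conA are also given for chickens 1, 2, 4 and 6 alone. The main fits do not use the pairing. In bulk PBMCs, a lower level in every cell and a lower share of the cells that express the gene cannot be told apart.

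After conA, none of the 73 genes passed the test against Control (edgeR quasi-likelihood test, adjusted p under 0.05), where 2.34% of all 20266 genes tested did. At an unadjusted p under 0.05, 10 genes were higher and 1 was lower, which compares with 6.98% of all genes higher and 5.81% lower. DESeq2 called none of the genes either, where it called 622 of the 20266 genes higher and 158 lower. It gave 10 genes of the set an unadjusted p under 0.05, and 2663 of all genes. The log2 FC was above 0 for 52 of the 73 genes and for 44.1% of all genes, and the median over the 73 genes was 0.11, against -0.03 over all genes. The log2 FC lay between -0.36 for the assembly factor NDUFAF6 and 0.49 for the complex I subunit NDUFS6. For 72 of the 73 genes the 95% interval stayed within 1 log2 unit of 0, as it did for 50% of all genes, and for 46 genes it stayed within 0.5 log2 units (29.9% of all genes). The width of an interval depends on read depth, here and for the strains. All genes tested include any with at least 2 reads over the 24 libraries, while none of the 73 was near the detection limit. The same limit applies to the shares of genes called, or higher or lower in every chicken, here and below. Of the complexes, complex V had a median log2 FC of 0.26 with 9 of 12 genes above 0, and complex III had a median of 0.22 with 7 of 8 genes above 0. The medians were 0.12 for complex IV (7 of 10 genes above 0), 0.10 for complex I (27 of 39) and 0.03 for complex II (2 of 4), and no test was made between complexes.

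**Figure D1:**
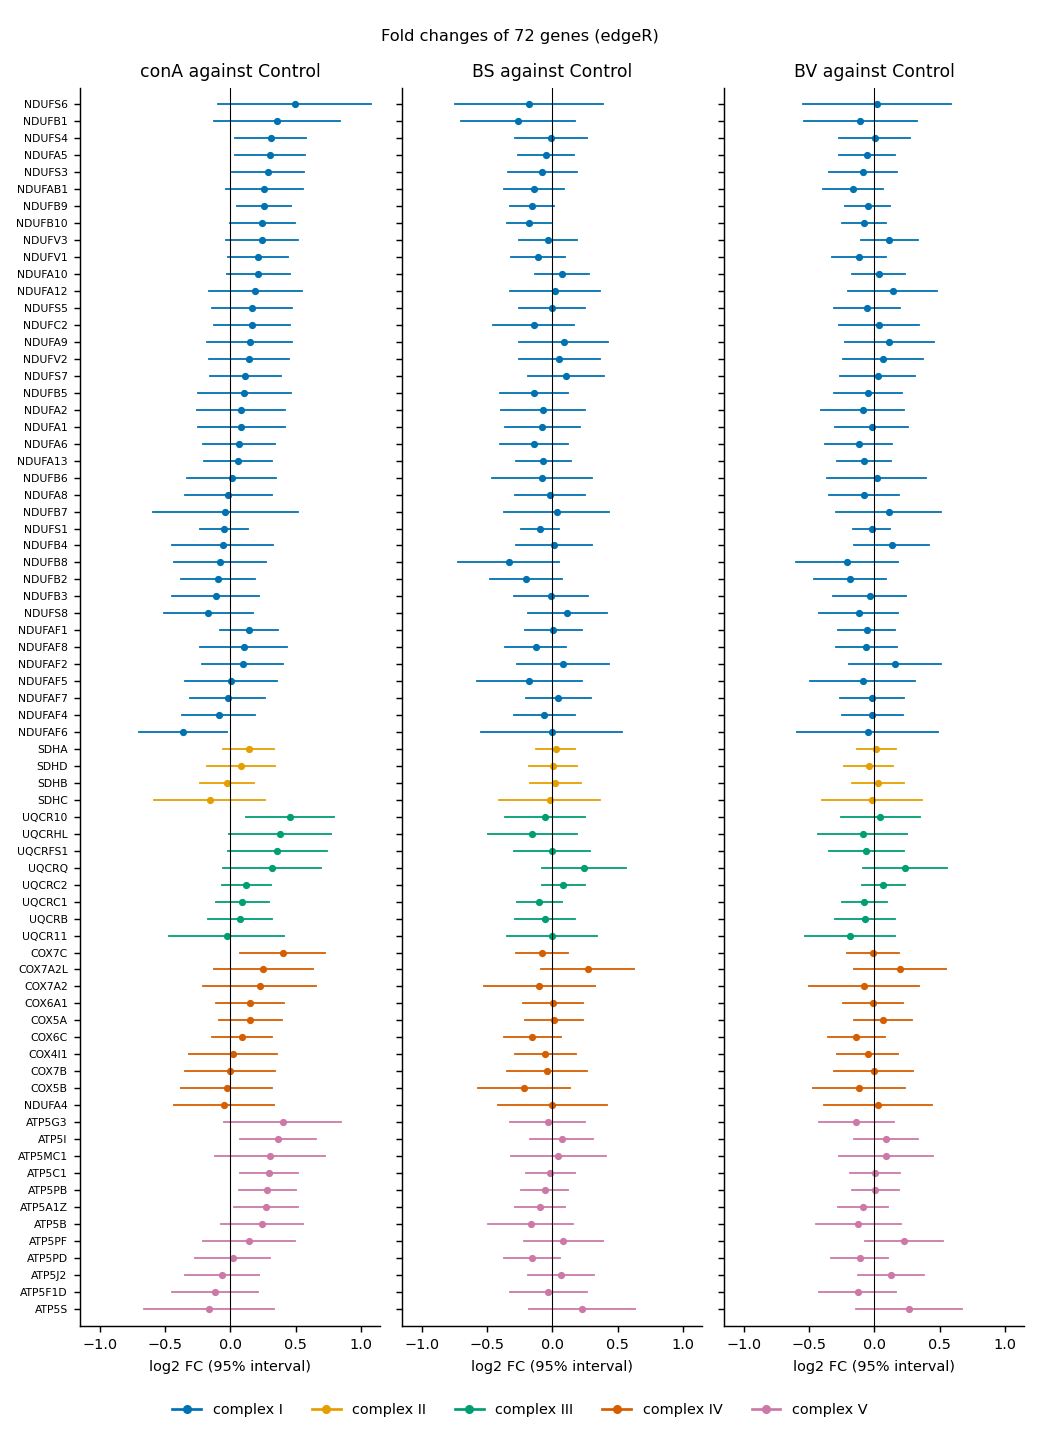
Log2 FC (points) with 95% intervals (lines) of 72 of the 73 genes after conA, BS and BV, each against Control, from the edgeR fits with 6 libraries per condition. Genes are ordered by complex, with the complex I assembly factors below the complex I subunits, and then by their value after conA; after conA 52 points lie right of 0, after BS 24 and after BV 28.

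With the chicken (the replicate number) as a block, UQCR10 and ATP5I (2.74% of the set) passed the edgeR test for conA against Control, both higher. Of all genes, 3.52% were called higher and 2.6% lower, so that the share of the set was no larger than that of all genes. UQCR10, a small subunit of complex III, had 335, 412 and 555 normalized counts (lowest, median and highest library) after conA, against 221, 304 and 408 in Control. By replicate number, the conA value was the higher in 6 of 6 pairs, although the groups overlapped. The log2 FC of 0.46 (SE 0.16) had an adjusted p = 0.203 in edgeR without the block and 0.0272 with it. ATP5I, subunit e of the membrane part of ATP synthase, had 516, 612 and 718 normalized counts after conA, against 358, 503 and 588 in Control. Again the conA value was the higher in all 6 pairs by number and the groups overlapped. The log2 FC was 0.36 (SE 0.14), with an adjusted p = 0.257 without the block and 0.0401 with it (edgeR). When single chickens were left out of the blocked fit, between 0 and 2 of the 73 genes were called: 1 without chicken 1 or chicken 4, 2 without chicken 5 and 0 without chicken 2, 3 or 6. Of all 20266 genes, between 463 (without chicken 6) and 635 (without chicken 4) were then called higher. With chickens 1, 2, 4 and 6 alone, the blocked fit called none of the set (2.05% of all genes were called higher), and the adjusted p was 0.0829 for UQCR10 and 0.188 for ATP5I (edgeR).

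Altogether, 10 genes were higher after conA in 6 of 6 chickens, where 5.75% of all genes were, and none was lower in 6 of 6 chickens, where 4.93% of all genes were. In chickens 1, 2, 4 and 6 alone, 21 genes were higher in 4 of 4 (10% of all genes) and 2, NDUFS8 and SDHC, were lower in 4 of 4 (10.9% of all genes). The 10 genes were NDUFA5, NDUFB9, NDUFS3 and NDUFS4 of complex I, SDHA of complex II, UQCR10 of complex III, COX5A of complex IV and ATP5I, ATP5MC1 and ATP5PB of complex V. NDUFB9, an accessory subunit of the membrane arm of complex I, was the only gene of the set whose conA and Control libraries did not overlap (2.27% of all genes). Its levels were 899, 997 and 1198 normalized counts after conA, 695, 769.6 and 828 after BS, 719, 838 and 903 after BV and 769, 874 and 895 in Control. The lowest conA library thus stood just above the highest Control library, and the log2 FC against Control was 0.26 (SE 0.10, edgeR adjusted p = 0.25). NDUFB9 was chosen after its values were seen.

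**Figure D2:**
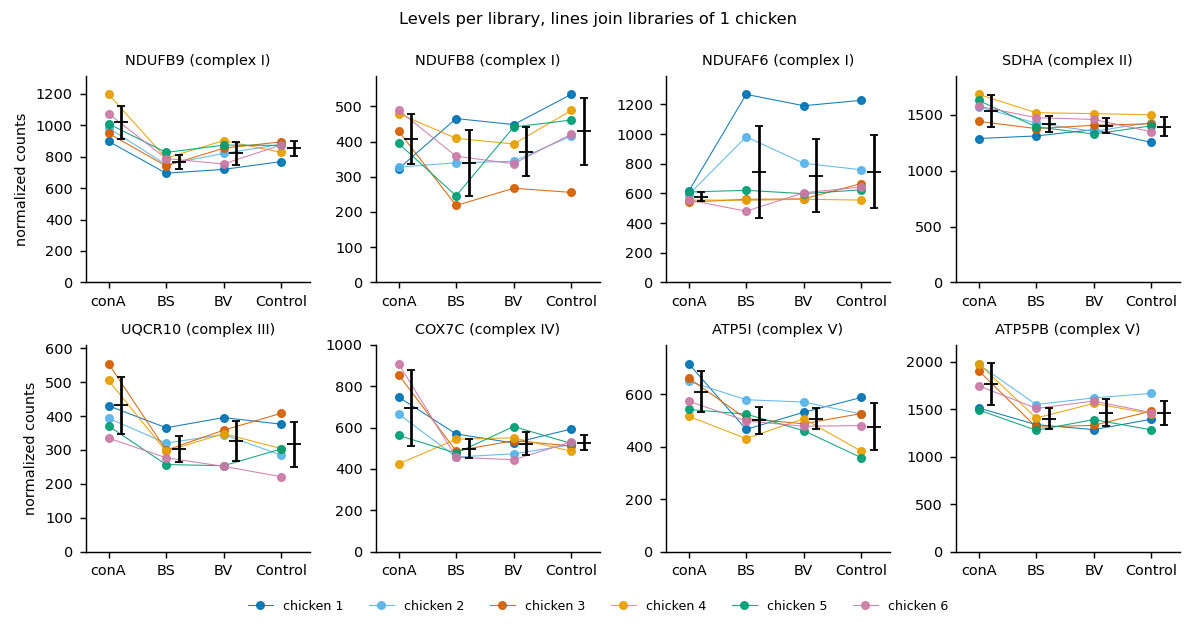
Normalized counts of 8 of the genes in each library, with 1 colour per replicate number, lines that join the 4 libraries of a number and black bars for the mean ± SD of the 6 libraries of a condition; the conA libraries numbered 3 and 5 did not match their numbers. By replicate number, NDUFB9, UQCR10, ATP5I and ATP5PB were higher after conA than in Control in 6 of 6 pairs. NDUFB8 was lower after BS in 6 of 6 chickens, and NDUFAF6 stood high in chickens 1 and 2 in every condition but conA.

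Among the 7 core subunits of complex I, which carry the flavin and the iron-sulfur clusters, 4 had a log2 FC above 0 after conA. NDUFV1, which binds NADH, had 1731, 1952 and 2381 normalized counts after conA, against 1499, 1643 and 2156 in Control. It was higher after conA in 5 of 6 chickens, with a log2 FC of 0.21 (SE 0.11, edgeR adjusted p = 0.429), or 0.13 without chicken 4. NDUFS3, of the peripheral arm, had 519, 606 and 678 normalized counts after conA, against 376, 467 and 618 in Control. All 6 chickens had the higher NDUFS3 value after conA, and the log2 FC was 0.29 (SE 0.13, edgeR adjusted p = 0.368). Nearer to 0 or below it were NDUFV2 with a log2 FC of 0.14, NDUFS7 with 0.11, NDUFS1 with -0.05 and NDUFS8 with -0.17. NDUFS1 was measured most precisely of these, with a 95% interval of -0.23 to 0.13. The interval of NDUFS8 (-0.51 to 0.17) also spanned 0.

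The accessory subunits of complex I, which surround the core and are needed for its assembly and stability, had a median log2 FC of 0.15 after conA, with 19 of 25 above 0. NDUFS6, which takes part in the last steps of assembly, had 387, 684 and 1047 normalized counts after conA, against 293, 468 and 733 in Control. Its chickens went in opposite directions: the log2 ratio was 1.53 in chicken 4 but -0.23 in chicken 1, and the log2 FC was 0.26 without chicken 4. The log2 FC of 0.49 over all chickens had an SE of 0.27 and an interval of -0.09 to 1.08 (edgeR adjusted p = 0.483), the only interval of the 73 genes that went beyond 1 log2 unit. NDUFB1, of the membrane arm, had 499, 712 and 947 normalized counts after conA, against 353, 519 and 971 in Control. Here the value of chicken 4 stood apart with a log2 ratio of 1.42, while those of the other chickens lay between -0.18 and 0.37, and the log2 FC was 0.36 (SE 0.22, edgeR adjusted p = 0.559), or 0.16 without chicken 4.

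The 7 assembly factors of complex I, which are not part of the finished complex, had a median log2 FC of 0.00 after conA. NDUFAF6, which in human cells is needed for building the membrane arm around ND1, had 541, 573 and 613 normalized counts after conA, 479.6, 590.3 and 1268 after BS, 560.2, 601 and 1191 after BV and 555, 654 and 1228 in Control. Chicken 1 had the highest value in the BS, BV and Control groups and chicken 2 the next, whereas after conA all 6 chickens lay close together. The log2 FC of conA against Control was -0.36 (SE 0.16, edgeR adjusted p = 0.355), and the log2 ratio was lowest in chicken 1 (-1.001), -0.36 in chicken 2 and between -0.30 and 0.00 in the remaining chickens; without chicken 1 the log2 FC was -0.18. Thrombocyte markers were likewise highest in chickens 1 and 2. The summed normalized counts of 8 of them in chickens 1 and 2 were 15715 and 2524 after conA, 81750 and 32429 after BS, 75087 and 34916 after BV and 97527 and 35738 in Control, while in chickens 3 to 6 they lay between 630.5 and 1022 after conA, between 928 and 4041 after BS, between 989.9 and 3666 after BV and between 904 and 4522 in Control. All 8 thrombocyte markers had a log2 FC below 0 after conA (median -2.64), of which F13A1, the A chain of coagulation factor XIII, fell by 1.85 on the log2 scale (edgeR adjusted p = 0.0239). B cell markers were also highest in chickens 1 and 2 after BS, after BV and in Control (sums of 4586 and 3435 in Control), but not after conA. Monocyte and macrophage markers were highest in these chickens in every condition (10675 and 8004 in Control). The part of thrombocytes or of any other cell type in the values of the 73 genes was not tested. The other assembly factors lay between NDUFAF4 with a log2 FC of -0.09 (SE 0.13) and NDUFAF1 with 0.14 (SE 0.11), and NDUFAF8, a partner of NDUFAF5 in human cells, had 0.10 (SE 0.16).

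Complex II, or succinate dehydrogenase, links the citric acid cycle to the chain, and its 4 subunits had log2 FC between -0.16 and 0.14 after conA. SDHA, the flavoprotein that oxidizes succinate, had 1288, 1576 and 1684 normalized counts after conA, against 1254, 1411 and 1501 in Control. All 6 chickens had the higher value after conA, by log2 ratios of 0.02 to 0.23, and the log2 FC was 0.14 (SE 0.09, edgeR adjusted p = 0.577). The iron-sulfur protein SDHB had a log2 FC of -0.02 (interval -0.23 to 0.18). The membrane anchors gave 0.08 (interval -0.18 to 0.34) for SDHD and -0.16 (interval -0.58 to 0.27) for SDHC, whose levels were the more variable.

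In complex III, the Rieske iron-sulfur protein UQCRFS1 had 427, 643 and 922 normalized counts after conA, against 371, 518 and 593 in Control. It was higher after conA in 5 of 6 chickens with overlapping groups (log2 FC 0.36, SE 0.18, edgeR adjusted p = 0.414). UQCRHL, annotated as a form of the hinge protein that contacts cytochrome c1, had 360.2, 505 and 711 normalized counts after conA, against 286, 373 and 611 in Control, again higher in 5 of 6 chickens (log2 FC 0.38, SE 0.19, edgeR adjusted p = 0.404). Chicken 4 had a log2 ratio of 1.31 for UQCRHL and the others lay between -0.12 and 0.41, and without chicken 4 the log2 FC was 0.19. The core proteins UQCRC1 and UQCRC2 had a log2 FC of 0.09 (SE 0.10) and 0.12 (SE 0.09). The small subunits UQCRB and UQCR11 had 0.08 (SE 0.12) and -0.03 (SE 0.21).

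In complex IV, cytochrome c oxidase, COX7C had 424, 707 and 909.9 normalized counts after conA, against 486, 520.1 and 593 in Control. COX7C is a small membrane subunit that lies at the edge of the complex. The conA libraries were much more spread than the Control libraries and reached both below and above them, with a lower value in chicken 4 (log2 ratio -0.20) and higher values in the other 5 (log2 FC 0.40, SE 0.15, edgeR adjusted p = 0.26). COX4I1 and COX5A, which sit next to the catalytic core, had a log2 FC of 0.02 (SE 0.16) and 0.15 (SE 0.11), COX5A with higher values in 6 of 6 chickens. COX5B, which binds zinc, had -0.03 (SE 0.16). Paralogues that differ between tissues in mammals were represented by COX6A1 and COX7A2, the forms that prevail outside heart and muscle there, with a log2 FC of 0.15 (SE 0.12) and 0.23 (SE 0.21). NDUFA4, counted here because it is a subunit of complex IV in mammals, had -0.05 (SE 0.18). COX7A2L, which in mammals joins complexes III and IV into supercomplexes, had 0.25 (SE 0.18). COX4I2, COX6A2, COX7A1, COX8A, NDUFA4L2 and ATP5MC2 were not analysed here.

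In complex V, the F1 head that makes ATP is formed by alpha and beta chains around the gamma chain. ATP5B, the catalytic beta chain, had 3152, 4180.4 and 4831 normalized counts after conA, against 2461, 3442 and 4723 in Control. It was higher after conA in 4 of 6 chickens (log2 FC 0.24, SE 0.15, edgeR adjusted p = 0.545), and the log2 FC was 0.11 without the libraries numbered 3 and 0.02 in chickens 1 and 2 alone. ATP5A1Z, the alpha chain copy on the Z chromosome, had 1883, 2293 and 2732 normalized counts after conA, against 1550.2, 1961 and 2281 in Control. The groups overlapped (log2 FC 0.27, SE 0.12, edgeR adjusted p = 0.336), and the log2 FC was 0.18 without the libraries numbered 3; chickens also have a W-linked copy of this gene, and no source used here tells how the counting divided reads between similar copies. The gamma chain ATP5C1 had 825, 990.2 and 1144 normalized counts after conA, against 725, 787 and 916 in Control. It had the lowest adjusted p of the set without the block, 0.202 (edgeR), with a log2 FC of 0.30 (SE 0.11) and higher values in 5 of 6 chickens.

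The membrane and stalk subunits of ATP synthase had a median log2 FC of 0.28 after conA, with 6 of 7 above 0. ATP5PB, subunit b of the peripheral stalk, had 1491, 1825 and 1978 normalized counts after conA, against 1281, 1458 and 1665 in Control. It was higher after conA in 6 of 6 chickens by log2 ratios of 0.12 to 0.45, with overlapping groups (log2 FC 0.28, SE 0.10, edgeR adjusted p = 0.228). The proton-carrying ring of subunit c is encoded by several genes, whose mature proteins are alike in mammals, so that reads may be shared between them. ATP5G3 had 199.9, 379 and 506 normalized counts after conA, against 209, 278 and 357 in Control, with a log2 FC of 0.40 (SE 0.21, edgeR adjusted p = 0.449), or 0.23 without the libraries numbered 3. ATP5MC1 had 83.0, 112 and 136 normalized counts after conA, against 71.9, 88.2 and 109 in Control, with a log2 FC of 0.30 (SE 0.20, edgeR adjusted p = 0.577) and higher values in 6 of 6 chickens. The lowest values of complex V were those of the delta chain ATP5F1D (log2 FC -0.12, SE 0.16) and of ATP5S, an associated coupling factor (log2 FC -0.16, SE 0.24).

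The summed levels showed how these values add up by library. Complex V came to 11763 ± 1526 normalized counts after conA and 10062 ± 1057 in Control (mean ± SD, n = 6 each), and complex III to 4771 ± 359 after conA and 4168 ± 288 in Control. Of the 6 conA libraries, 5 lay above the highest Control library for complex III and 3 did for complex V. Complex IV came to 6124 ± 759.5 after conA and 5659 ± 304 in Control, with 4 conA libraries above the highest Control library and 2, those numbered 4 (5316) and 5 (5105), below the lowest (5326). Complex I came to 25039 ± 1372 after conA and 23400.1 ± 1337 in Control, and complex II to 3099 ± 134 after conA and 2974 ± 86.1 in Control, and 1 conA library for complex I and 2 for complex II lay above the highest Control library. These sums are dominated by the genes with the most counts and were not tested.

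**Figure D3:**
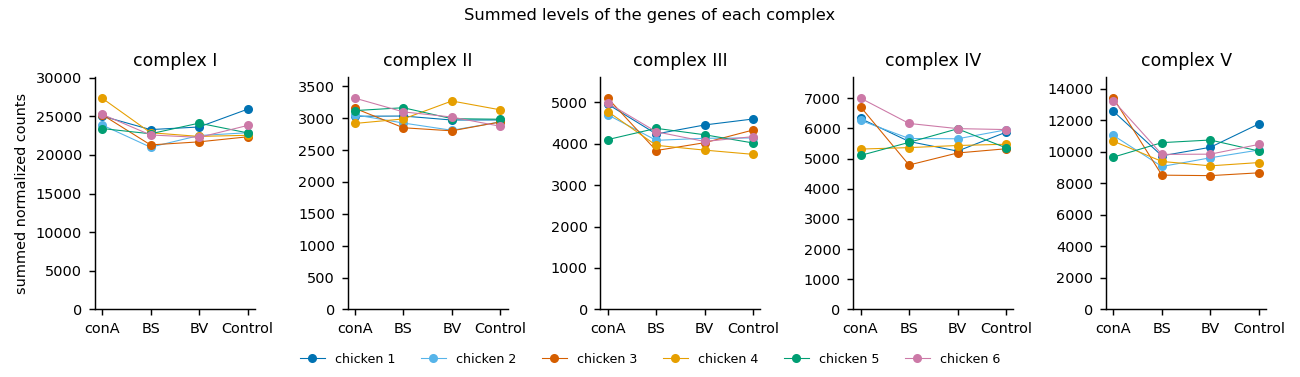
Summed normalized counts of the genes of each complex in each library (points, 1 colour per replicate number), with lines that join the 4 libraries of a number and axes that start at 0. The conA libraries lie highest on average in each panel, but for complex IV those numbered 4 and 5 lie below the lowest Control library, and the groups overlap in the other panels too.

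After BS, the 73 genes had small log2 FC, more of them below 0 than above. No gene passed the edgeR test (adjusted p under 0.05), and 0% of all genes did. In edgeR 1 gene of the set had an unadjusted p under 0.05, against 3.14% of all genes. DESeq2 called none, where it called 13 of the 20266 genes higher and 2 lower. It gave 2 genes of the set an unadjusted p under 0.05, and 549 of all genes. The log2 FC was above 0 for 24 of 73 genes (48.4% of all genes), or for 33 when library totals were used for scaling, and its median was -0.04. It lay between -0.34 for NDUFB8 and 0.27 for COX7A2L. The 95% interval stayed within 1 log2 unit of 0 for all 73 genes (51.9% of all genes) and within 0.5 log2 units for 63 (36.5% of all genes).

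Of the 73 genes, 8 were lower after BS in 6 of 6 chickens, where 2.27% of all genes were, and none was higher in 6 of 6, where 2.57% of all genes were. Complex I had 7 of these 8 genes (NDUFB2, NDUFB8, NDUFB9, NDUFB10, NDUFC2, NDUFS1 and the assembly factor NDUFAF5), and COX4I1 of complex IV was the eighth. NDUFB8, an accessory subunit of the membrane arm, had 218, 349 and 465 normalized counts after BS, against 256, 441 and 534 in Control. Chicken 5 had the largest difference (log2 ratio -0.90), and its BS library had the fewest counts of the 24 libraries (12170873). The other chickens lay between -0.29 and -0.20, and the groups overlapped (log2 FC -0.34, SE 0.19, edgeR adjusted p = 1). With single chickens left out in turn, the log2 FC lay between -0.36 and -0.24. NDUFB10, of the same arm, had 691, 736 and 807 normalized counts after BS, against 792, 852 and 889 in Control. Its differences were small and alike, from -0.34 to -0.08 on the log2 scale over the 6 chickens, and the log2 FC of -0.18 (SE 0.08) had an unadjusted p of 0.0354 and an adjusted p = 1 (edgeR). With the chicken as a block no gene of the set was called (1.04% of all genes were), and 6 had an unadjusted p under 0.05 (10.8% of all genes): NDUFB2, NDUFB8, NDUFB9, NDUFB10 and NDUFAF5 were lower and COX7A2L was higher. The lowest adjusted p of the set with the block was 0.134 in edgeR and 0.0661 in DESeq2.

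After BV, small log2 FC below 0 were again the more frequent. None of the 73 genes passed the edgeR test, as against 0.00493% of all genes, and none had an unadjusted p under 0.05 (2.95% of all genes) or was called or had such a p with DESeq2. Of all 20266 genes, DESeq2 called 9 higher and 1 lower, and 451 had such a p. The log2 FC was above 0 for 28 genes (46.9% of all genes), with a median of -0.03 and a range of -0.21 for NDUFB8 to 0.27 for ATP5S. The interval stayed within 1 log2 unit of 0 for all 73 genes (52.4% of all genes) and within 0.5 log2 units for 61 (36.7% of all genes). With the chicken as a block no gene was called (0.913% of all genes were), and NDUFB2 and NDUFB8 had an unadjusted p under 0.05, both lower (10.9% of all genes). The lowest adjusted p of the set with the block was 0.409 in edgeR and 0.301 in DESeq2. Across chickens, COX7A2L and UQCRQ were higher after BV in 6 of 6 (3.15% of all genes) and NDUFS3 was lower in 6 of 6 (2.62% of all genes).

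A few genes stood at the ends of the range for the strains. COX7A2L had 282, 309 and 461 normalized counts after BS and 229, 329 and 422 after BV, against 201, 295 and 339 in Control. The groups overlapped for both strains, with a log2 FC of 0.27 (SE 0.17) for BS and 0.20 (SE 0.17) for BV (edgeR adjusted p = 1 for each). UQCRQ, a small subunit of complex III, had 138, 181 and 243 normalized counts after BS and 155, 184 and 213 after BV, against 127, 151 and 192 in Control, which gave a log2 FC of 0.24 (SE 0.15) for each strain. For UQCRQ the BS value was -0.13 in chickens 1 and 2 alone, and the BV value was 0.14 without chicken 4. Coupling factor 6 (ATP5PF) had a log2 FC of 0.08 (SE 0.15) for BS and 0.23 (SE 0.14) for BV, and ATP5S had 0.23 (SE 0.20) for BS and 0.27 (SE 0.19) for BV, or 0.10 and 0.09 without chicken 3. Complex I accessory subunit NDUFB1 had -0.26 (SE 0.21) for BS, or -0.13 without chicken 1, and -0.11 (SE 0.21) for BV. Both strains were compared with the same Control libraries. In the direct comparison of BS with BV, no gene of the set and 0% of all genes passed the edgeR test, with none of the set at an unadjusted p under 0.05 (1.12% of all genes) and none with DESeq2 at either threshold. Of all 20266 genes, DESeq2 called 0 and gave 154 an unadjusted p under 0.05. All 73 intervals of that difference stayed within 1 log2 unit of 0 (54.2% of all genes) and 67 within 0.5 log2 units (39.6%).

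Some genes of the set passed the test when conA was compared with the strains directly, in a fit of all 24 libraries. In such a fit, conA against Control still gave no call in the set, where 632 of all 20266 genes were called higher and 66 lower. Of the set, 18 genes then had an unadjusted p under 0.05, all higher (2819 of all genes in either direction). The lowest adjusted p of the set was 0.0804 (edgeR). Against BS, 7 genes (9.59% of the set) passed the edgeR test, all higher after conA, where 3.6% of all genes were called higher and 0.567% lower. Against BV, 3 genes passed, all higher. They were 4.11% of the set, near the 3.23% of all genes called higher, and 0.405% of all genes were called lower. These comparisons share the conA libraries with each other and with the comparison against Control. NDUFB9 had a log2 FC of 0.42 (SE 0.08, adjusted p = 0.00191) against BS, without overlap between the groups (2.67% of all genes), and of 0.32 (SE 0.08, adjusted p = 0.0282) against BV, with values of 899 to 1198 after conA, 695 to 828 after BS and 719 to 903 after BV (edgeR). NDUFA5, an accessory subunit of the peripheral arm, had 421, 475 and 574 normalized counts after conA, 347, 378 and 434 after BS, 331, 373 and 407 after BV and 316, 403 and 457 in Control. It was higher after conA than after either strain in 6 of 6 chickens, and its conA and BV libraries did not overlap, which held for 2.61% of all genes and in the set for NDUFA5 and COX6C (log2 FC 0.36 and SE 0.11 against BS, 0.37 and SE 0.11 against BV, edgeR adjusted p = 0.0489 for each).

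ATP5A1Z had 1540.3, 1837 and 1979.5 normalized counts after BS and 1624, 1829 and 1916 after BV, all below the conA median of 2293. The log2 FC was 0.37 (SE 0.10) against each strain (edgeR adjusted p = 0.0258 against BS and 0.0321 against BV). The other 4 genes called against BS were NDUFB10 (log2 FC 0.43, SE 0.10), UQCR10 (0.52, SE 0.15), COX7C (0.49, SE 0.13) and ATP5PB (0.35, SE 0.09). Their log2 FC against BV was 0.33, 0.42, 0.42 and 0.28, with edgeR adjusted p-values of 0.0615, 0.146, 0.0878 and 0.101. NDUFA5, NDUFB10 and ATP5PB, like NDUFB9, were picked for the text after their values were seen.

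How many genes passed depended on the chickens and on the model. Against BS, 1 gene was called without chicken 2 or without chicken 3, 3 without chicken 4 or without chicken 6, and 1 when library totals were used for scaling. Of all 20266 genes, 492 were called higher without chicken 2 and 497 without chicken 3. The counts were 543 without chicken 4, 544 without chicken 6 and 480 with library totals. Against BV, 1 gene was called without chicken 2, none without chicken 3 or without chicken 6, and none with library totals. Of all genes, 444 were called higher without chicken 2, 427 without chicken 3, 475 without chicken 6 and 465 with library totals. DESeq2 called 11 genes against BS (4.25% of all genes higher) and 7 against BV (3.75% of all genes higher). With the chicken as a block, 18 genes were called against BS (6.95% of all genes higher) and 16 against BV (6.28% of all genes higher), all higher after conA, and 14 genes were in both lists. The lists come from the same fit and share the conA libraries, so that overlap is built in. The overlap over all genes was not counted. All genes tested include any with at least 2 reads over the 24 libraries, and shares at the depth of the set were not counted. By complex, the 18 genes were 10 of complex I (39 genes in the set), 2 of complex III (8), 1 of complex IV (10) and 5 of complex V (12). The 16 were 8 of complex I, 3 of complex III, 1 of complex IV and 4 of complex V. None of the 4 genes of complex II and none of the 7 assembly factors was among them, and no test was made between these classes. With chickens 1, 2, 4 and 6 alone, the blocked fit called 12 genes against BS (5.35% of all genes higher) and 11 against BV (5.22% of all genes higher), all higher after conA. The fit of these chickens without the block called none of the set against either strain. Of all 20266 genes, it called 329 higher against BS and 323 against BV. The 14 shared genes were NDUFA5, NDUFAB1, NDUFB1, NDUFB9, NDUFB10, NDUFS3, NDUFS4, NDUFV1, UQCR10, UQCRHL, COX7C, ATP5A1Z, ATP5C1 and ATP5PB.

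The median log2 ratio of conA to Control over the 73 genes was 0.06 in chicken 1, 0.09 in chicken 2, 0.14 in chicken 4 and 0.21 in chicken 6. For the numbers 3 and 5, where the conA libraries did not match their Control libraries, it was 0.31 and -0.01. The median over all genes that averaged 10 normalized counts or more lay between -0.01 and 0.00 in each chicken. For BS the medians of the 73 genes lay between -0.10 and 0.01, and for BV between -0.10 and 0.09, with 50 genes higher in chicken 5 and 23 in chicken 1. The conA libraries of chickens 3 to 6 carry library numbers apart from those of their other libraries, and no source used here tells what the numbering stands for. Of the set, 56 genes had a log2 FC above 0 when only chickens 1 and 2 were used. The count was 52 when only chickens 3 to 6 were used, which include the conA libraries numbered 3 and 5. The median log2 FC over all genes was 0 in both fits. Whether the numbering bears on these values was not tested.

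**Figure D4:**
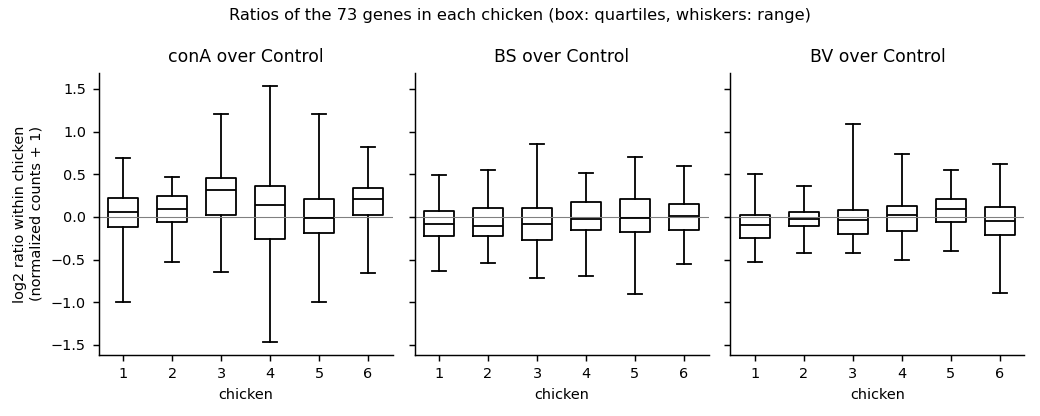
Log2 ratios of each treatment to Control within each chicken for the 73 genes (boxes: quartiles with the median as a line; whiskers: lowest and highest gene), from normalized counts plus 1. After conA the medians lie between 0.06 and 0.21 in chickens 1, 2, 4 and 6 and at 0.31 and -0.01 for the numbers 3 and 5, whose conA libraries did not match their numbers; after BS and BV all medians lie between -0.10 and 0.09.

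Over the 24 libraries, a median of 14.7% of the variance of a gene's log2 level was shared by libraries of 1 condition and 37.7% by libraries of 1 chicken, against medians of 12.5% and 47.9% over 9656 genes of the tables that averaged 100 normalized counts or more. These shares are sums of squares over the total, with no correction for the number of conditions or chickens. Libraries with nothing in common would therefore also give shares above 0. How large these would be was not computed, so the shares can only be read beside those of the other genes. Over the 16 libraries of chickens 1, 2, 4 and 6, the medians were 19.3% for the condition and 42.2% for the chicken, against 17.9% and 51.0% over the 9656 genes. NDUFB9 had the highest share with the condition (67.7%), ahead of NDUFB10 (52.1%), NDUFA5 (51.8%) and ATP5PB (49.0%). The highest shares with the chicken were those of the complex I genes NDUFA9 (70.4%), NDUFAF5 (69.2%) and NDUFAF6 (67.6%). The SD of the log2 level in Control had a median of 0.23 over the 73 genes and of 0.24 over those 9656 genes. Once the mean of each condition was removed, each gene was correlated (Pearson) with the mean of the other 72 genes over the 24 libraries. The correlation was above 0 for 55 genes, with a median of 0.23. The libraries share animals, the mean of each chicken was not removed, and no such correlation was computed for other genes. ATP5A1Z (0.86) and ATP5G3 (0.84) followed the rest of the set most closely, and SDHA (-0.52) and NDUFS6 (-0.48) ran against it.

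**Figure D5:**
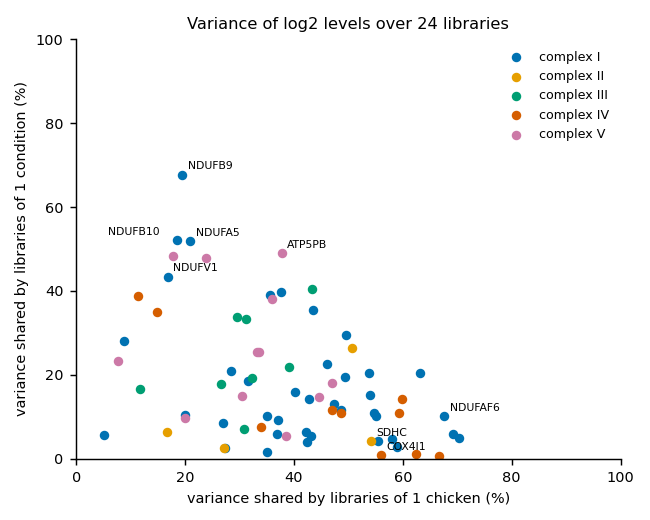
Share of the variance of the log2 level that libraries of 1 condition have in common (vertical axis) against the share that libraries of 1 chicken have in common (horizontal axis), in percent, for the 73 genes coloured by complex. NDUFB9 stands highest at 67.7%, and NDUFAF6 lies far right at 67.6% with a condition share of 10.2%. The shares are not corrected for the number of conditions or chickens.

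The subunits that mitochondrial DNA encodes are the partners of these genes in complexes I, III, IV and V. After conA, 13 of 13 had a log2 FC above 0 (44.1% of all genes), with a median of 0.21. These 13 genes share the mitochondrial DNA and may not vary independently, which was not tested. The same limit applies to their counts for the strains. None passed the edgeR test (2.34% of all genes), and 1 had an unadjusted p under 0.05 (6.98% of all genes higher, 5.81% lower). This was CYTB, which encodes cytochrome b of complex III, with a log2 FC of 0.33 (SE 0.11, edgeR adjusted p = 0.179). The share of the 13 genes in all counts was 0.759% to 1.08% after conA and 0.689% to 1.18% in Control. For the numbers 1, 2, 4 and 6 the summed normalized counts of the 13 genes were higher after conA than in Control. The conA libraries numbered 3 and 5 did not match their numbers. Their sums were 220380 and 245560 after conA, against 287410 and 158370 in the Control libraries of these numbers. Cytochrome c (CYCS), the electron carrier between complexes III and IV, had a log2 FC of 0.38 (SE 0.13, edgeR adjusted p = 0.165). Of 33 assembly factors whose symbols fall outside the rule, 21 were above 0 after conA (44.1% of all genes), with a median of 0.06. None of the 33 was called and 3 had an unadjusted p under 0.05. After BS 2 of 13 mitochondrially encoded genes were above 0 (48.4% of all genes), with a median of -0.03 over the 13. After BV 4 of 13 were (46.9% of all genes), with a median of -0.01. In edgeR none was called for either strain. None had an unadjusted p under 0.05 (3.14% of all genes for BS, 2.95% for BV).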

How the data were processed

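Total RNA of PBMCs from 6 chickens was sequenced by the authors after 24 h of culture, with 6 libraries each for conA, BS, BV and Control. Stranded libraries gave 100-base paired-end reads, which were aligned to GRCg6a with STAR 2.7.3 (bcl2fastq 2.20, FastQC 0.11.5, R 3.6.1, per the submitters' processing notes). No source used here names the counting tool, its use of strand or the annotation, so that reads of overlapping or near-identical genes may have been divided in ways that cannot be seen. The first table deposited by the authors holds raw read counts per gene. The second holds the authors' normalized signal, equal to the count divided by the DESeq2 1.24.0 size factor of the library. The number of sample columns left unused was 0.

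Counts of the 20266 genes with at least 2 reads over the 24 libraries were tested with edgeR 4.0.16 in R 4.3.3 (quasi-likelihood test, robust, TMM, Benjamini-Hochberg over all genes, called at an adjusted p under 0.05). conA was compared with Control in a fit of 12 libraries, BS and BV with Control and with each other in 18, and conA with the strains in all 24. The main fits have no term for the chicken, since the study names none for its DESeq2 fits; its paired tests of single genes concern BS and BV. The study drew all conditions from the same 6 chickens and the titles number the replicates. Deviations of same-numbered libraries correlated with r of at least 0.386 for BS and Control, 0.506 for BV and Control and 0.453 for BS and BV, each library best with its own number, but of -0.0344 to 0.768 for conA and Control, where 4 of 6 did so (13024 genes). Blocked values are given where they change a call, for conA also without the numbers 3 and 5. SE and 95% intervals come from the quasi-likelihood F statistic. Alternatives used DESeq2 1.42.0, other scalings and filters, and subsets of chickens; fits were tested on simulated data. Library totals of 12170873 to 31242160 counts set the precision.

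Members follow the symbol rule, and the roles and marker lists were written by hand; members and lists were chosen with earlier results of these data known. Genes named one by one are core subunits, tissue-dependent paralogues, the 2 highest and 2 lowest members per complex and among the assembly factors after conA, and the 3 largest absolute log2 FC per strain; other genes named with values were chosen after their values were seen. The values of 1 of the core subunits are not reported here.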

Additional observations from a re-analysis of the deposited data

Results flagged for a closer look

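In 172 groups of 6 libraries (43 named genes in 4 conditions), 9 held 1 library whose distance to the nearest of the others, as a share of the range of the group, was above Dixon's 95% critical value. Chance flags about 1 in 20 groups, and the 9 lie in 9 different libraries. In conA, COX7A2 had its lowest value in chicken 4, 112 normalized counts, with the others between 215 and 265. After BS, UQCRC1 was lowest in chicken 5 (883, others 1038 to 1122), and NDUFA4 was highest in chicken 6 (313, others 146 to 201). After BV, NDUFS1 was lowest in chicken 3 (2580, others 2795 to 2922), NDUFAF8 was highest in chicken 5 (923, others 621 to 715) and NDUFV2 was highest in chicken 6 (554, others 318 to 405). In Control, NDUFAF6 was highest in chicken 1 (1228, others 555 to 759), COX7A2 in chicken 2 (282, others 150.0 to 185) and NDUFAF4 in chicken 6 (429, others 331 to 365).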

How the results depend on the processing

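For conA against Control, BS against Control, BV against Control and BS against BV, no gene of the set was called under other scalings, other filters or with single chickens left out, all without a block. With the replicate block (the chicken), 2 genes were called for conA against Control (3 with DESeq2 and the block, 0 to 2 with single chickens left out), 18 for conA against BS (19 with DESeq2 and the block, 15, 12, 13, 12, 19 and 15 without chickens 1 to 6 in turn) and 16 for conA against BV (19 with DESeq2 and the block, and 14, 10, 9, 12, 18 and 11 without chickens 1 to 6 in turn); it called none for the other comparisons. Of all 20266 genes, DESeq2 with the block called 864 higher for conA against Control, 1578 against BS and 1373 against BV. In edgeR with the block and single chickens left out, 993 to 1281 genes were called higher against BS and 907 to 1286 against BV. Without the block, 7 genes were called against BS and 3 against BV. DESeq2 gave 11 and 7, library totals 1 and 0, and single chickens left out 1 to 8 and 0 to 4. Chickens 1 and 2 alone gave 0 and 0 (86 and 62 of all 20266 genes called higher). Chickens 3 to 6 alone gave 3 against BS (630 of all genes higher), and with the block 11 and 7 (996 and 887). Chickens 1, 2, 4 and 6 alone gave 0 and 0 (329 and 323), and with the block 12 and 11 (1085 and 1058). A stricter low-count filter (filterByExpr), which left 13630 genes to test, gave 7 against BV (706 of them higher). An absolute log2 FC above 1.5 besides gave 0 and 0 (214 and 195 of all genes). The signs turned for NDUFV1 after conA in chickens 1 and 2 alone (-0.0017), ATP5B after BS in chickens 3 to 6 alone (0.0049, with the block 0.0107), NDUFV1 after BS in chickens 3 to 6 alone (0.0201, with the block 0.0202) and UQCRQ after BS in chickens 1 and 2 alone (-0.1302); the cause was not tested. Of the named log2 FC against Control, 45 were larger than their SE and 84 were not, and 60 of these changed sign under at least 1 alternative. The blocked fits with chickens left out and with chickens 3 to 6 alone, and the fits with chickens 1, 2, 4 and 6 alone, were chosen after seeing the data. With 6 libraries per condition, SEs of 0.07 to 0.27 log2 units limit what could be called.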

Other observations

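Genes that serve the respiratory chain from outside it gave the following values after conA, against Control. Of 69 mitochondrial ribosomal proteins, which translate the mitochondrially encoded subunits, 53 had a log2 FC above 0 (44.1% of all genes did), with a median of 0.13. MRPL57 rose (log2 FC 0.48, SE 0.12, edgeR adjusted p = 0.0487). It was the only one of the 69 called, where 2.34% of all genes were. Of 16 genes of mitochondrial protein import, 12 had a log2 FC above 0 (median 0.17); none was called and 1 had an unadjusted p under 0.05. Among 8 regulators of respiratory genes, MYC, a transcription factor of growing cells, rose (log2 FC 0.43, SE 0.10, edgeR adjusted p = 0.0252), while NRF1, which activates many genes of the chain in mammals, had a log2 FC of -0.27 (SE 0.10, edgeR adjusted p = 0.23). MCM2, a helicase subunit of DNA replication, rose among 9 proliferation genes (log2 FC 0.49, SE 0.12, edgeR adjusted p = 0.033), of which 8 were above 0. Of 12 T cell markers, 6 had a log2 FC above 0 (median -0.01), and ZAP70, a kinase of the T cell receptor, rose (log2 FC 0.56, SE 0.11, edgeR adjusted p = 0.00869), whereas CD3E, part of that receptor, had a log2 FC of 0.02 (SE 0.11). Of 12 monocyte and macrophage markers, 4 were above 0 (median -0.23), and TIMD4, a receptor of phagocytes for phosphatidylserine, rose (log2 FC 2.04, SE 0.53, edgeR adjusted p = 0.0495). None of 9 B cell, 8 erythrocyte and 4 heterophil markers was called in edgeR, with 1, 1 and 1 at an unadjusted p under 0.05 and medians of 0.22, 0.01 and 0.24. The erythrocyte markers summed to a median of 1485.5 normalized counts after conA and 2805.5 in Control, and the heterophil markers to 199 after conA and 344 in Control, with overlapping libraries.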
